A study of Mus musculus with 24 samples.

Results

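Type I interferon-stimulated genes are the genes that cells switch on when type I interferon, a family of cytokines best known from viral infection, binds its receptor. The receptor, made of Ifnar1 and Ifnar2, activates the kinases Jak1 and Tyk2, and a complex that contains Stat2 and Irf9 then binds the interferon-stimulated response element in promoters. The products detect foreign or misplaced nucleic acids, degrade RNA, block translation or alter other proteins with the ubiquitin-like protein Isg15, and Irf7 among them raises interferon production in turn. In the mammary gland, resident macrophages, other leukocytes, epithelium, fibroblasts and adipocytes can all express them.

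The set holds 36 genes, named in a list and found on the array by their gene names, out of 34797 gene names with a probe. Each gene is described by 1 probe, the brightest over the arrays, of the 50 probes it has among 55681 in all. RNA came from whole mammary gland of female mice of 2 inbred strains, BALB/c, a common laboratory strain, and SPRET/EiJ, an inbred line of the western Mediterranean mouse Mus spretus. Mice received 10 cGy of X-rays to the whole body (low-dose ionizing radiation, LDIR) or sham treatment at 8-9 weeks of age, with no transgene or other allele named. BALB/c glands were taken 2, 4 and 8 weeks later and SPRET/EiJ glands 4 weeks later, in 8 groups of 3 mice, each mouse on its own single-colour Agilent array, 24 in all. Replicates carry the letters A, B and C. The stage of the estrous cycle was not given in the labels.

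A level is the log2 of the scanner software's processed signal less that array's own 75th percentile, so that 0 is the brightness of the probe at that percentile and 1 unit is a doubling. Levels are compared for 1 gene between arrays and not between genes, since probes differ in brightness. LDIR comparisons were called at an unadjusted p under 0.05 with a change over 1.5-fold, and strain comparisons at an unadjusted p under 0.001 with the same fold, the thresholds of the study's methods, using limma's moderated test over all probes. With 3 arrays a side, the smallest two-sided p of an exact permutation test is 0.1. All 24 arrays measured 32 of the 36 genes well above background (for probes of any gene the share ran from 57.1% to 72.6% of an array). Of the other 4, Herc6 was so on 23 arrays, Oas3 on 21, Ifi44 on 19 and Eif2ak2 on 18.

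Before the comparisons, 3 arrays need to be set apart: BALB/c 8-week sham A, BALB/c 8-week LDIR B and SPRET/EiJ LDIR A. The summed level (on the linear scale, relative to the 75th percentile) of 6 markers of B cells and plasma cells was 108 to 121 on these 3 arrays, 3.01 to 7.7 on the other 16 BALB/c arrays and 8.33 to 11.2 on the other 5 SPRET/EiJ arrays. All 6 of these markers stood over 1.5-fold above their strain's median on all 3 arrays, as did 6 of 8 T cell markers and 3 of 3 lymph node stroma markers. Of 7 macrophage markers, 0 did so. Results that rest on these arrays are given with and without them where such a fit was run. BALB/c 8-week sham A also had 42.5% of all probes over 1.5-fold above their BALB/c median, and SPRET/EiJ LDIR C had the lowest share of detected probes, 57.1%. Markers of luminal epithelium, basal epithelium and white adipocytes, the tissue named in the labels, were above background on every array for 6 of 6, 4 of 4 and 6 of 6 genes. Slide 1 held the 2-week arrays and 4-week sham A and B, slide 2 the other 4-week BALB/c arrays, the 8-week sham arrays and 8-week LDIR A, and slide 3 the remaining 8-week LDIR arrays and all SPRET/EiJ arrays.

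**Figure D1:**
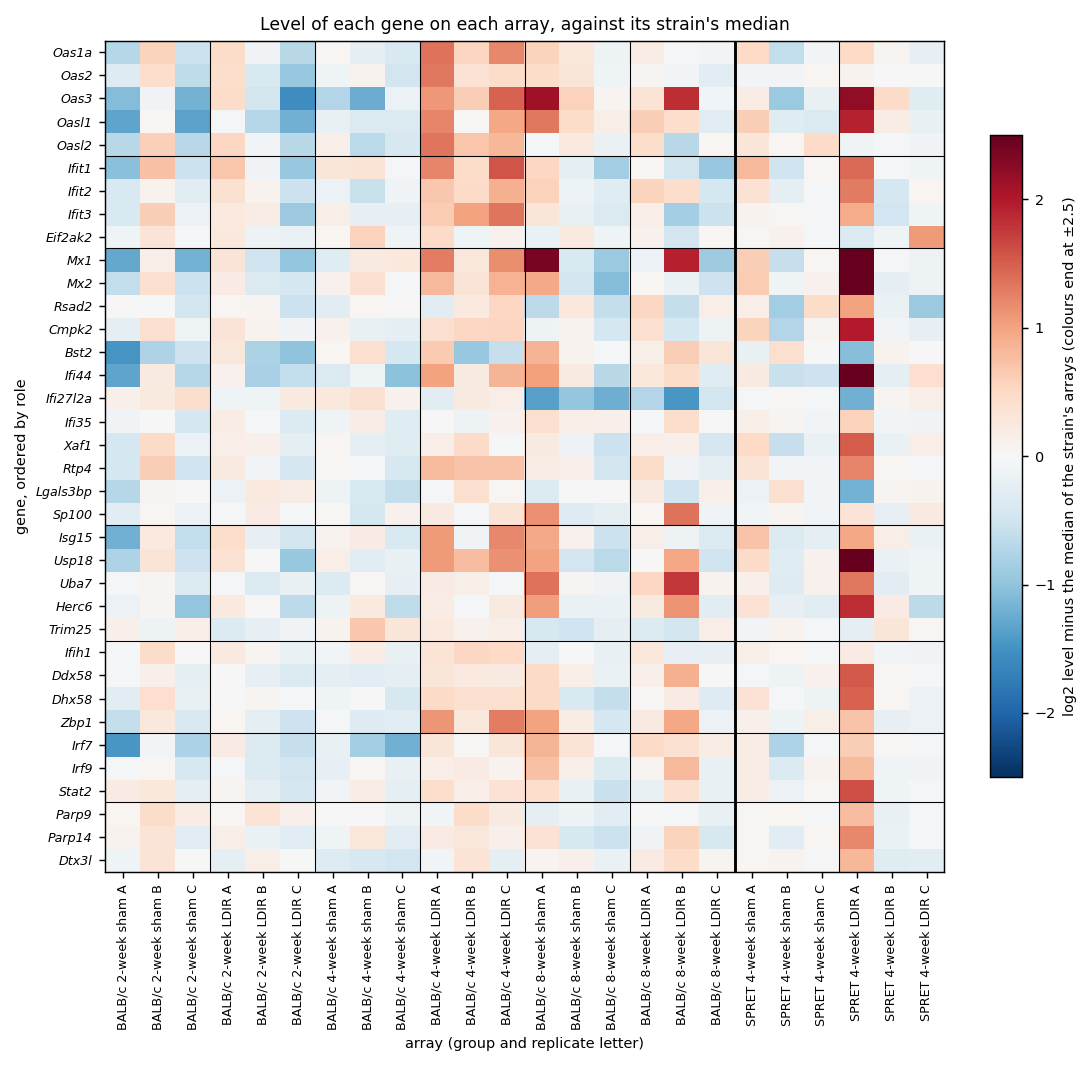
Log2 level of each of the 36 genes (rows, ordered by role) on each of the 24 arrays (columns), minus the median of the 18 BALB/c or 6 SPRET/EiJ arrays; red is above and blue below that median, and the thick line parts the strains. The 3 BALB/c 4-week LDIR columns are mostly red, SPRET/EiJ LDIR A stands over 1.5-fold above its strain's median for 25 of the 36 genes (16.4% of all probes), and 8-week sham A and LDIR B are red for a smaller set of rows.

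Promoter sequences of 26 of the 36 genes were found in the RefSeq table of 300-base promoters (build GRCm38.p6, 250 bases before to 50 after the start of the gene), 29 promoters in all. Oas2, Mx1, Mx2, Usp18, Dhx58, Ifi27l2a, Parp9, Parp14, Zbp1 and Rtp4 were not matched. The letters GAAANNGAAA, a plain form of the interferon-stimulated response element, were searched on both strands. They occurred in promoters of 11 of the 26 genes, which are Ifit1, Ifit3, Isg15, Oas1a, Oas3, Rsad2, Stat2, Ifih1, Ddx58, Eif2ak2 and Bst2, and in 3.44% of all 32851 promoters in the table. The letters TTCNNNGAA, a plain form of the gamma-activated site, read the same on both strands and occurred in promoters of 5 genes (Ifit2, Oas1a, Eif2ak2, Ifi35 and Bst2) and in 8.3% of all promoters. In Bst2 both sets of letters overlap.

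The 160 bases before the start are printed for the 6 genes that hold the response element there and passed the thresholds in at least 1 comparison below, with its letters in capitals. Irf7 and Oasl1, which passed the thresholds after LDIR and hold neither set of letters in the 300 bases, are printed as a contrast. Sequences run 5′ to 3′ on the gene's strand and are those of the reference genome, not of BALB/c or SPRET/EiJ.
Ifit1 (chr19:34640729-34640888, plus strand): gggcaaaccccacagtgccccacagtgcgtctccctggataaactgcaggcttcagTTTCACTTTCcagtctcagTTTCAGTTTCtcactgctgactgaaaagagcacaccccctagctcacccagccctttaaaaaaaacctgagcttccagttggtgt
Ifit3 (chr19:34583369-34583528, plus strand): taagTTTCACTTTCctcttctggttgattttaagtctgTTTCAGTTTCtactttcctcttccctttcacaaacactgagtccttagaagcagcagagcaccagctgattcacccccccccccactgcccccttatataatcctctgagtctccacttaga
Oas1a (chr5:120907526-120907685, minus strand): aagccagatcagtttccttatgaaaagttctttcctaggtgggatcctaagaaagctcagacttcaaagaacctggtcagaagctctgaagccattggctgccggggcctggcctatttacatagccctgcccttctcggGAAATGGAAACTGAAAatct
Oas3 (chr5:120777660-120777819, minus strand): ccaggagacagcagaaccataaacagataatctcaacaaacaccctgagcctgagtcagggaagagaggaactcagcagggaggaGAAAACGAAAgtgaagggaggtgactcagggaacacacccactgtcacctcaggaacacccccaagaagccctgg
Rsad2 (chr12:26456453-26456612, minus strand): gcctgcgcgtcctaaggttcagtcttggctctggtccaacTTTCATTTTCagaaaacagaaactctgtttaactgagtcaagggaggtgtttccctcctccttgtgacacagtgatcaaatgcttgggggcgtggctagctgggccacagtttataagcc
Bst2 (chr8:71537473-71537632, minus strand): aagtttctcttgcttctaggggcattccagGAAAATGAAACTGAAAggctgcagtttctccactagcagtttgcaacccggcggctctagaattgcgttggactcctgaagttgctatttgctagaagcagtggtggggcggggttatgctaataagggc
Irf7 (chr7:141266425-141266584, minus strand): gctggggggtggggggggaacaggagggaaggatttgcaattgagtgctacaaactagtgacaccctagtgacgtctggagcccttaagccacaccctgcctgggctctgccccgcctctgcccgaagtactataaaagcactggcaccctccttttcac
Oasl1 (chr5:114923080-114923239, plus strand): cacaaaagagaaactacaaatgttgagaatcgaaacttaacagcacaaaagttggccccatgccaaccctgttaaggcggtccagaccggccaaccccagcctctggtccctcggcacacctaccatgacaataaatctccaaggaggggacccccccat

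In Ifit1 the letters lay at -104 to -95 and -85 to -76, counted back from the start, and in Ifit3 at -156 to -147 and -122 to -113, in each gene once with TTTCACTTTC and once with TTTCAGTTTC. Oas1a had 2 overlapping copies at -20 to -5, and Bst2 likewise at -130 to -115. In Eif2ak2 they lay after the start, at 19 to 28, outside the stretch printed. Of the 10 matched genes that passed the thresholds in BALB/c at 4 weeks, 4 held the response element letters, as did 7 of the 16 matched genes that did not pass.

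In BALB/c 2 weeks after exposure, levels of the 36 genes did not separate LDIR from sham arrays. None of the 36 passed the thresholds (3.07% of all probes did), and 0 had an unadjusted p under 0.05 in limma, or passed in the methods' t-test. All 36 genes had overlapping groups, the median log2 difference was 0.05 (all probes -0.01), and the differences ran from -0.28 to 0.52. Irf7, the transcription factor that amplifies interferon production, was at -1.06, 0.32 and -0.40 on the sham arrays A, B and C and at 0.58, 0.04 and -0.18 on the LDIR arrays. Its difference of 0.52 (standard error, SE, 0.39, limma adjusted p = 0.872) lay within the spread between arrays, and Irf7 was the 1 gene that passed when sham B was left out. Trim25, a ubiquitin ligase that modifies Ddx58, had the largest moderated t, with 5.57, 5.34 and 5.61 in sham and 5.11, 5.24 and 5.36 in LDIR, a difference of -0.27 (SE 0.15, limma adjusted p = 0.872). Sham B stood above sham A and C for many of the genes, with a median deviation from the BALB/c median of 0.26 against -0.36 and -0.39.

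At 4 weeks after exposure, 16 of the 36 genes were higher in LDIR than in sham BALB/c glands past both thresholds, and 0 were lower. Over all probes, 3.37% passed as higher and 1.46% as lower. The genes included all 5 oligoadenylate synthetases, all 3 Ifit genes, Irf7, Usp18, Zbp1 and Ifi44, with folds from 1.51 (Dhx58) to 3.42 (Oas3). The median log2 difference of the 36 genes was 0.51 (all probes 0.01), and 32 of 36 were positive (51.9% of all probes). Every LDIR array lay above every sham array for 21 of the 36 genes, against 6.3% of all probes, and the groups overlapped for 15. No gene had an adjusted p under 0.05, the lowest being 0.641 for Usp18 in limma, while 19 had an unadjusted p under 0.05 and the methods' t-test gave 13 past the thresholds. In whole tissue, a change in the number of cells that express a gene and a change in RNA per cell cannot be told apart.

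**Figure D2:**
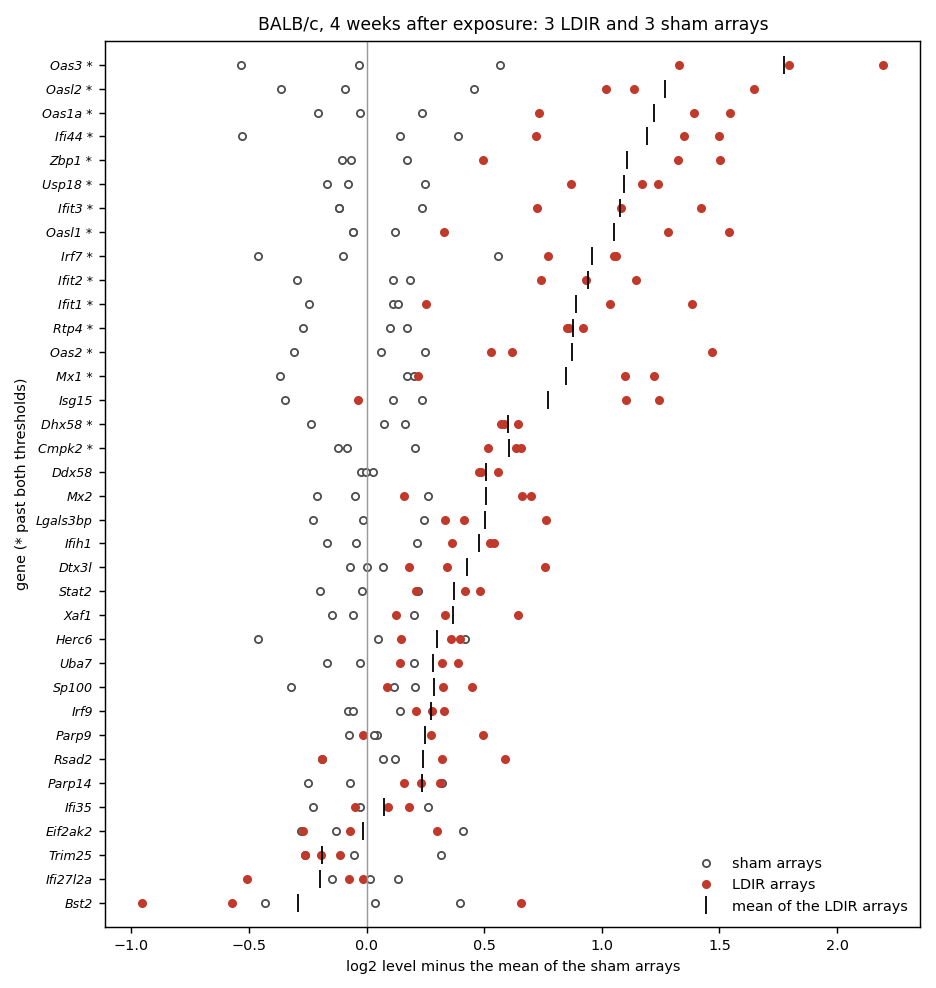
Log2 level of each gene on the 3 sham (open) and 3 LDIR (red) BALB/c arrays at 4 weeks, minus the mean of the sham arrays, ordered by the difference, with a bar at the LDIR mean and a star at the 16 genes past both thresholds. Oas3 has the largest difference plotted, 1.77, with 1 of its sham arrays not well above background, and the 4 genes at the foot (Eif2ak2, Trim25, Ifi27l2a and Bst2) have negative differences.

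The oligoadenylate synthetases make 2'-5' linked oligoadenylates that activate RNase L, an enzyme that degrades RNA. All 5 passed the thresholds at 4 weeks, with a median log2 difference of 1.22. Oas1a (probe on chromosome 5, 121346735 to 121346794, mm9) was at 2.54, 2.28 and 2.10 on the sham arrays A, B and C and at 3.85, 3.04 and 3.70 on the LDIR arrays, a difference of 1.22 (SE 0.26, limma adjusted p = 0.679). Its second, dimmer probe gave 1.33 and passed too. Oas2 was at 1.97, 2.16 and 1.6 in sham and at 3.38, 2.44 and 2.53 in LDIR, a difference of 0.87 (SE 0.30). Oas3, the longest of the family, was at -4.94, -5.44 and -4.34 in sham, with 2 of 3 arrays above background, and at -3.11, -3.58 and -2.71 in LDIR, a difference of 1.77 (SE 0.35, limma adjusted p = 0.653). It was 0.47 with normexp background correction, which did not pass, and 1.2 with slide as a block. The lowest LDIR array of each of these genes lay above its highest sham array. Oasl1 and Oasl2, relatives of the synthetases in the same list, lie next to each other on chromosome 5. Oasl1 was at 1.17, 0.99 and 0.99 in sham and at 2.59, 1.38 and 2.33 in LDIR, a difference of 1.05 (SE 0.32). Oasl2 (probe on chromosome 5, 115362168 to 115362227) was at 2.03, 1.21 and 1.48 in sham and at 3.22, 2.59 and 2.71 in LDIR, a difference of 1.26 (SE 0.28, limma adjusted p = 0.679). LDIR B was the lowest of the 3 LDIR arrays for all 5 of these genes.

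The Ifit proteins bind RNA and restrain its translation, and Eif2ak2 encodes PKR, a kinase that stops translation when it binds double-stranded RNA. Ifit1, Ifit2 and Ifit3 lie in a cluster on chromosome 19. Ifit1 was at 0.65, 0.67 and 0.29 in sham and at 1.57, 0.79 and 1.92 in LDIR, a difference of 0.89 (SE 0.31). Ifit2 was at -1.37, -1.78 and -1.30 in sham and at -0.55, -0.74 and -0.34 in LDIR, a difference of 0.94 (SE 0.20). Ifit3 (probe on chromosome 19, 34663105 to 34663164, mm9) was at 1.69, 1.34 and 1.34 in sham and at 2.18, 2.54 and 2.88 in LDIR, a difference of 1.08 (SE 0.23, limma adjusted p = 0.679). All 3 separated the groups. Eif2ak2 did not, at 0.92, 1.46 and 0.77 in sham and 1.35, 0.78 and 0.98 in LDIR, a difference of -0.01 (SE 0.25). Ifit3 and Oas1a have close relatives in the mouse genome, and how much of their signal came from these was not tested.

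Of 12 other effector genes, 4 passed the thresholds and 10 had positive differences. Ifi44, a gene of unsettled function, was at 0.10, 0.35 and -0.57 in sham and at 1.46, 0.68 and 1.31 in LDIR, a difference of 1.19 (SE 0.32, limma adjusted p = 0.716). Rtp4, a chaperone of cell-surface receptors (probe on chromosome 16, 23613668 to 23613727), was at 3.31, 3.24 and 2.87 in sham and at 4.06, 3.99 and 4.00 in LDIR, a difference of 0.88 (SE 0.18, limma adjusted p = 0.662). Its LDIR arrays differed by less among themselves (SD 0.04) than its sham arrays (SD 0.24). Cmpk2, a mitochondrial nucleotide kinase, was at -0.74, -1.03 and -1.07 in sham and at -0.43, -0.31 and -0.29 in LDIR, a difference of 0.60 (SE 0.17). Mx1, a dynamin-like GTPase that blocks influenza viruses and is carried as a defective allele by BALB/c and most laboratory strains, was at -1.84, -1.30 and -1.27 in sham and at -0.25, -1.25 and -0.37 in LDIR. Its difference of 0.85 (SE 0.32) passed the thresholds although the lowest LDIR array exceeded the highest sham array by little. Mx2, its neighbour on chromosome 16, differed by 0.51 and did not pass. Rsad2, which encodes viperin, an enzyme that makes a chain-terminating nucleotide, differed by 0.24 although it lies next to Cmpk2 on chromosome 12. Bst2 (tetherin, which holds budding virus at the cell surface) and Ifi27l2a had negative differences of -0.29 and -0.20 within the spread between arrays, and Xaf1, Ifi35, Sp100 and Lgals3bp lay between 0.07 and 0.50. A second Xaf1 probe differed by 4.37 and passed, since it was high on LDIR A and C and low on LDIR B and all sham arrays. The first Xaf1 probe differed by 0.36.

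The Isg15 system attaches the ubiquitin-like Isg15 to other proteins (Uba7 is its activating enzyme, Herc6 its ligase in mice) and removes it again (Usp18). Of these 4 genes and Trim25, Usp18 alone passed. Usp18, which also restrains signalling at the interferon receptor, was at 0.88, 0.46 and 0.55 in sham and at 1.80, 1.5 and 1.87 in LDIR. Its difference of 1.09 (SE 0.19) had the lowest p of the 36 genes. Isg15 itself was at 2.86, 2.98 and 2.40 in sham and at 3.85, 2.71 and 3.99 in LDIR, a difference of 0.77 (SE 0.38, limma adjusted p = 0.775) that did not pass, with LDIR B among the sham arrays. Its second probe differed by 0.95 and passed. Herc6 differed by 0.30, and its second probe by 0.69, which passed. Uba7 differed by 0.28 and Trim25 by -0.19.

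Among the nucleic acid sensors, Zbp1, a sensor of left-handed nucleic acids, and Dhx58, a helicase that tunes the other RNA helicases, passed the thresholds. Zbp1 was at 0.65, 0.37 and 0.41 in sham and at 1.80, 0.97 and 1.98 in LDIR, a difference of 1.1 (SE 0.29, limma adjusted p = 0.709), but its second, dimmer probe differed by 0.06. Dhx58 was at -0.34, -0.25 and -0.65 in sham and at 0.23, 0.16 and 0.17 in LDIR, a difference of 0.60 (SE 0.17). Ddx58, which encodes the RNA sensor RIG-I, separated the groups by a small and even step, from 1.92, 1.87 and 1.89 to 2.45, 2.38 and 2.37. Its difference of 0.51 (SE 0.14) lay under 1.5-fold, as did that of Ifih1 (MDA5) at 0.48, so neither passed, and the second Ddx58 probe differed by 0.02. Of the transcription factors, Irf7 passed, at 0.20, -0.46 and -0.82 in sham and 0.69, 0.41 and 0.70 in LDIR, a difference of 0.96 (SE 0.28, limma adjusted p = 0.754). Stat2 and Irf9, which belong to the complex that binds the response element, differed by 0.37 and 0.27 and did not pass. Parp9, Parp14 and Dtx3l, which modify proteins with ADP-ribose and ubiquitin and lie together on chromosome 16, differed by 0.25, 0.23 and 0.43, and 0 of the 3 passed. A second, dimmer Parp9 probe passed as lower in LDIR, with a difference of -0.63.

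Arrays of the 4-week comparison lay on both slide 1 and slide 2, so each sham array was also taken alone. Every LDIR array was higher than sham A for 27 of the 36 genes, higher than sham B for 23 (both on slide 1) and higher than sham C for 31 (on slide 2, with the LDIR arrays). The share of all probes was not taken for these counts, so they do not show that the 36 genes stand out. The LDIR mean exceeded these arrays by a median of 0.47, 0.52 and 0.72. When this fit took slide as a block, it set the LDIR arrays against sham C alone, so no count of the 36 genes is given for it. Ifit3, Irf7, Oas1a, Oasl2 and Rtp4 passed in each of the 11 alternatives and each of the 6 fits without 1 array. The 11 include fits with slide as a block, which set LDIR against sham C alone. In the fit of all 24 arrays 9 genes passed, all among the 16. With slide as a block there the difference is likewise that of the LDIR arrays from sham C alone, so no count is given. No share of all probes is set beside the count of 9 here. Over all probes that passed at 4 weeks, 69.8% were higher in LDIR, but 51.5% after quantile normalization, 49.1% after normexp background correction and 31.9% with slide as a block. The genes described here that passed in those fits were all higher. Bst2 was lower past the thresholds when LDIR A was left out.

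Of 39 other genes of the interferon pathway, 3 passed as higher and 3 as lower at 4 weeks, to be read against the 3.37% and 1.46% of all probes. Of 23 ligand genes listed 15 were measured, of which Ifnab was higher by 0.79 with overlapping groups, Ifng lower by -1.15 with overlapping groups, and Ifna4, above background on no array, passed as lower, and no level is given for it. Ifnb1 and Ifne were likewise above background on no array. Of 6 receptor genes, which include Ifnar1 and Ifnar2, 0 passed. Among 11 sensors and adaptors Tlr7, an endosomal receptor of single-stranded RNA, was higher, at 0.21, 0.23 and 0.18 in sham and 0.96, 1.1 and 0.86 in LDIR, a difference of 0.77 (SE 0.15, limma adjusted p = 0.653). Of 7 negative regulators, Trim30a was higher by 0.88 and Socs3 lower by -0.64.

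Most markers of macrophages were also higher in LDIR at 4 weeks. Of 7 macrophage markers 5 passed the thresholds as higher in LDIR (Cd68 0.81, Emr1 0.72, Mrc1 0.76, C1qa 1.03, C1qb 0.82), with a median log2 difference of 0.76, and their summed level was 39.3 to 57.8 in sham and 64.4 to 92.1 in LDIR. All 7 were well above background on every array. Cd14 went the other way, at 2.34, 3.33 and 2.91 on sham A, B and C and at 2.27, 2.4 and 2.4 in LDIR. On LDIR A, B and C the macrophage sum was 92.1, 77 and 64.4. The median deviation of the 36 genes from the BALB/c median was 0.45, 0.28 and 0.43 there (all probes 0.02, 0.03 and 0.04). On 8-week sham A, B and C the sums were 78.9, 95.5 and 81.6, with median deviations of 0.47, 0.07 and -0.28 (all probes 0.34, -0.13 and -0.12). On 8-week LDIR A, B and C they were 78.3, 90 and 60.4, with 0.15, 0.3 and -0.19 (all probes -0.06, -0.09 and -0.18). Of 6 B cell and plasma cell markers Pou2af1 (0.76) was higher, with summed levels of 3.37 to 4.93 in sham and 3.41 to 5.02 in LDIR. Of 6 neutrophil markers Ly6g (1.07) was higher, but 3 of the 6 differences were negative. Their summed level was 1.84 to 2.96 in sham and 1.05 to 2.24 in LDIR. Of 4 basal epithelium markers Krt5 (-0.73) and Krt14 (-0.93) were lower, with summed levels of 36.1 to 44.1 in sham and 26.7 to 38.1 in LDIR. Of 6 markers of plasmacytoid dendritic cells, a main source of type I interferon, 0 passed (Bst2 is one of them), and the summed level was 437 to 470 in sham and 420 to 427 in LDIR. The part of these cell types in the result was not tested.

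At 8 weeks after exposure, the 36 genes again showed no difference past the thresholds. None passed (1.92% of all probes did), and 0 had an unadjusted p under 0.05 in limma or passed in the methods' t-test. The median log2 difference was 0.09 (all probes -0.14), and all 36 genes had overlapping groups. Oas2, with the largest moderated t, was at 2.53, 2.38 and 1.95 in sham and at 2.13, 2.00 and 1.80 in LDIR, a difference of -0.31 (SE 0.26, limma adjusted p = 1). The 2 arrays with high lymphoid markers, sham A and LDIR B, stood out for some of the genes. On sham A 14 of the 36 stood over 1.5-fold above the BALB/c median (42.5% of all probes did), so as a set they did not exceed all probes there. The median deviation on sham A was 0.47, against 0.34 over all probes. On LDIR B 10 of the 36 stood that high (13.8% of all probes). Mx1 was at 0.85 on sham A and 0.41 on LDIR B, and between -2.45 and -1.68 on the other 4 arrays of this time. Uba7 was at 4.03 and 4.43 on these 2 arrays against 2.58 to 3.18, and Sp100, a component of nuclear bodies, at -0.17 and 0.04 against -1.64 to -1.26. Of the 36 genes, 17 had their highest BALB/c level on sham A or LDIR B of this time, and 15 had it on a 4-week LDIR array. No share of all probes was taken for these counts, so they do not show that the 36 genes stand out. Without sham A and LDIR B, 0 genes passed, 30 differences were positive and their median was 0.17. No value over all probes was taken for that fit, so these are not set against one.

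**Figure D3:**
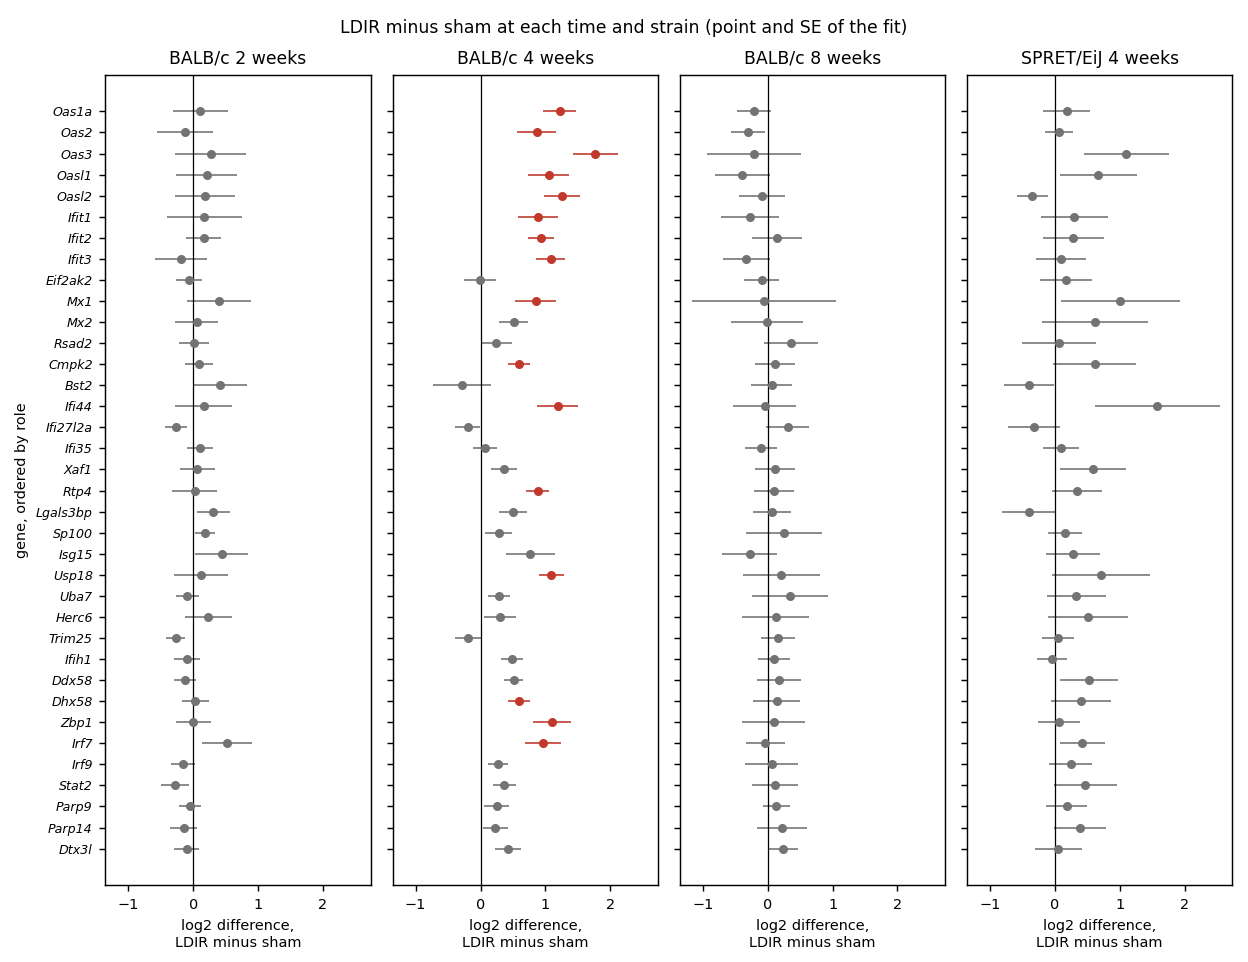
Log2 difference, LDIR minus sham, with the standard error of the fit, for each of the 36 genes (rows, ordered by role) in 4 panels (BALB/c at each of its 3 times, then SPRET/EiJ), with genes past both thresholds in red. Red points stand only in the 4-week BALB/c panel, 16 of 36; Mx1 at 8 weeks and Ifi44 in SPRET/EiJ have wide errors, each from a group that holds an array with high lymphoid markers.

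Whether the LDIR change itself differed over the 3 times was tested for each gene in the 18 BALB/c arrays. Only Ifit3 and Oas1a passed (moderated F of 4.64 and 4.59, unadjusted p under 0.05; 3.74% of all probes passed), and none had an adjusted p under 0.05. For Ifit3 the LDIR change over the 3 times, in order, was -0.19, 1.08 and -0.33, and for Oas1a 0.11, 1.22 and -0.21. The 16 genes that passed at 4 weeks and not at the other times are therefore not shown to differ between times, apart from these 2 at the unadjusted threshold. With slide as a block in this fit, 0 of the 36 passed. Without 8-week sham A and LDIR B, neither Ifit3 (3.74) nor Oas1a (3.33) passed, and Oas3, Ddx58, Ifi27l2a and Zbp1 did. That fit was chosen after seeing the data, and no share of all probes is set beside it, so its genes are not shown to exceed one.

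In SPRET/EiJ 4 weeks after exposure, none of the 36 genes passed the thresholds (2.21% of all probes did), and 0 had an unadjusted p under 0.05 in limma or passed in the methods' t-test. The median log2 difference was 0.28 (all probes 0.03) and 31 of 36 were positive, but this rested on 1 array. Oas3 had the largest moderated t, at -3.04, -4.15 and -3.42 in sham and -1, -2.76 and -3.54 in LDIR, a difference of 1.1 (SE 0.66, limma adjusted p = 0.972) with overlapping groups. LDIR A was the highest of the 6 SPRET/EiJ arrays for 30 of the 36 genes, a count for which no share of all probes was taken. It stood over 1.5-fold above the strain's median for 25 of the 36, against 16.4% of all probes. Without LDIR A, 12 of 36 differences were positive (59.2% of all probes) and their median was -0.08 (all probes 0.06), with 0 genes past the thresholds.

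On SPRET/EiJ LDIR A, Mx1 was at 4.19, against 0.32 to 1.52 on the other 5 arrays of the strain. Usp18 was at 3.06 against 0.10 to 0.88, and Mx2 at 1.57 against -1.54 to -0.66. Ifi44 was above background on this SPRET/EiJ array alone, at -3.19 against -7.44 to -6.47. Stat2 (2.96 against 1.21 to 1.54), Ddx58 (3.66 against 2.01 to 2.23) and Cmpk2 (0.30 against -2.41 to -1.13) were also higher there. Not all genes followed. Oasl2 was at 1.16 against 1.17 to 1.73, Oas2 at 1.46 against 1.31 to 1.42, and Ifi27l2a, Bst2, Lgals3bp and Trim25 were lower than on each of the other 5 arrays. Eif2ak2 has no order among the SPRET/EiJ arrays, since none of the 6 measured it above background. Lymphoid markers were high on this array, with 6 of 6 B cell markers raised as given above, while macrophage markers summed to 48.7 there against 56 to 77.3 on the other 5 and white adipocyte markers to 677 against 1760 to 2150, and the part of these cells in the values was not tested. Of the 16 genes that passed in BALB/c at 4 weeks, 13 stood over 1.5-fold above the SPRET/EiJ median on this array (16.4% of all probes did), and Oas1a, Oas2 and Oasl2 did not.

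**Figure D4:**
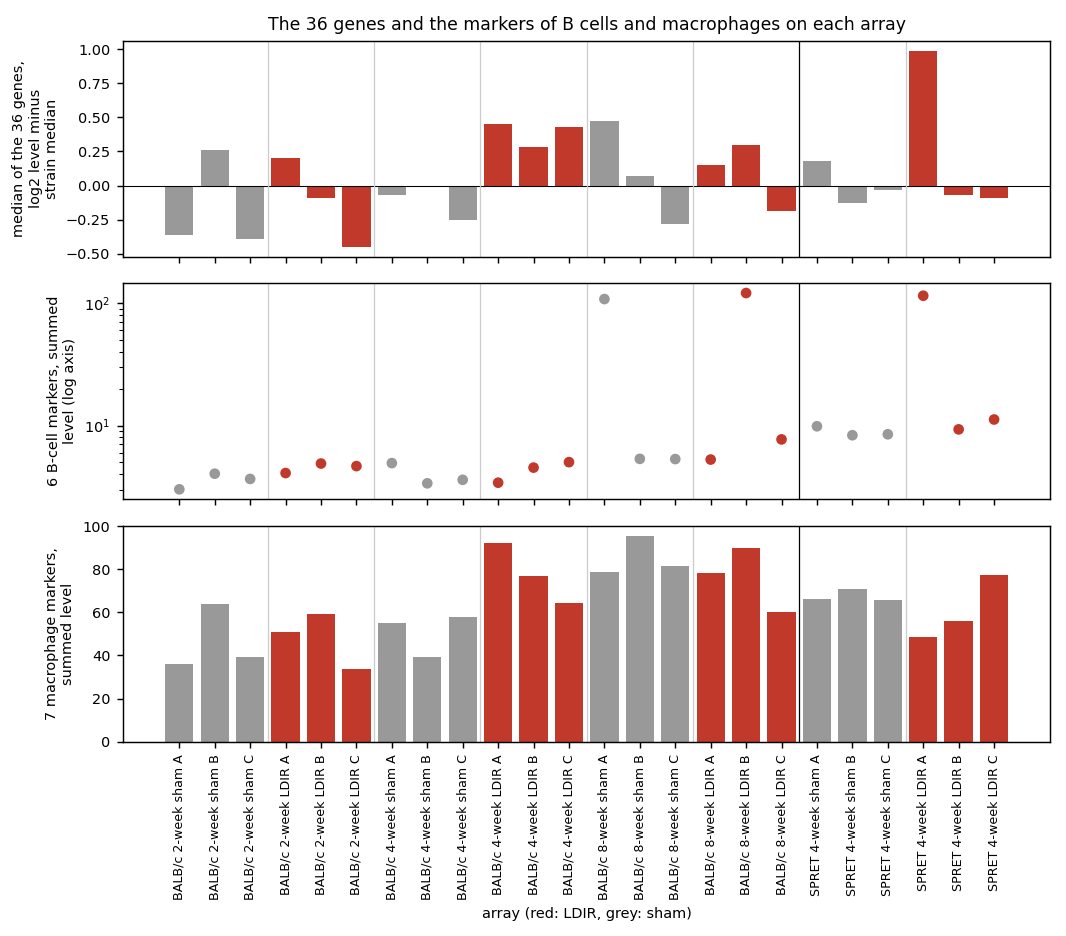
For each of the 24 arrays (red LDIR, grey sham), the median over the 36 genes of the log2 level minus the strain's median (top), the summed level of 6 B cell and plasma cell markers on a log axis (middle) and of 7 macrophage markers (bottom), both relative to the 75th percentile. SPRET/EiJ LDIR A has the highest median of the 36 genes (0.99) and one of the 3 high B cell values (108 to 121); the 3 BALB/c 4-week LDIR arrays have medians of 0.28 to 0.45 with B cell values of 3.41 to 5.02.

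The LDIR change at 4 weeks was compared between strains by an interaction term in the 12 arrays. Oasl2, Oas1a and Zbp1 passed, all with the larger change in BALB/c (2.04% of all probes passed in this direction and 1.55% in the other), and none of the 36 had an adjusted p under 0.05, the lowest being 0.955. For Oasl2 the change was 1.26 in BALB/c and -0.35 in SPRET/EiJ, where its LDIR arrays (1.16, 1.22 and 1.17) lay below its sham arrays (1.57, 1.30 and 1.73). The difference between the changes was 1.61 (SE 0.36), and Oasl2 passed in each of the 11 alternatives and each of the 12 fits without 1 array. For Oas1a the difference was 1.04 (SE 0.46) and for Zbp1 1.04 (SE 0.44), and each passed in 4 of the 12 fits without 1 array. Without SPRET/EiJ LDIR A, 12 genes passed (Ifit2, Ifit3, Oas1a, Oas3, Oasl2, Mx2, Usp18, Ifih1, Dhx58, Dtx3l, Zbp1 and Rtp4), 32 of 36 differences were positive and their median was 0.70, against 0.15 with it. Over all probes that fit gave 1.98% with the larger change in BALB/c and 2.57% in the other direction, and 46.9% of differences were positive. The second probe of Zbp1 differed by -0.79 (SE 0.89), against the first, and the mean over both probes by 0.13, which did not pass. The second probes of Oas1a (1.27) and Xaf1 (4.07) passed in the same direction as the 3 genes and that of Parp9 (-1.17) in the other. Of the pathway genes, Tlr7 differed by 0.92 in the first direction and Ifna4, not above background on any array, passed in the other. Of the 7 macrophage markers, 3 passed with the larger change in BALB/c (Mrc1 0.99, C1qa 1.32, C1qb 0.88), and their part in the result was not tested.

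Between the strains, 11 of the 36 genes differed in sham glands at 4 weeks, 8 higher and 3 lower in BALB/c (5.36% and 3.53% of all probes), and 15 had an adjusted p under 0.05 (18.8% of all probes). The BALB/c and SPRET/EiJ sham arrays lay on different slides, and probes were designed on laboratory mouse sequence, so strain, slide and a mismatch of SPRET/EiJ RNA to a probe cannot be told apart. BALB/c arrays were all above SPRET/EiJ arrays for 18 genes (17.8% of all probes) and all below for 7 (20.2%).

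**Figure D5:**
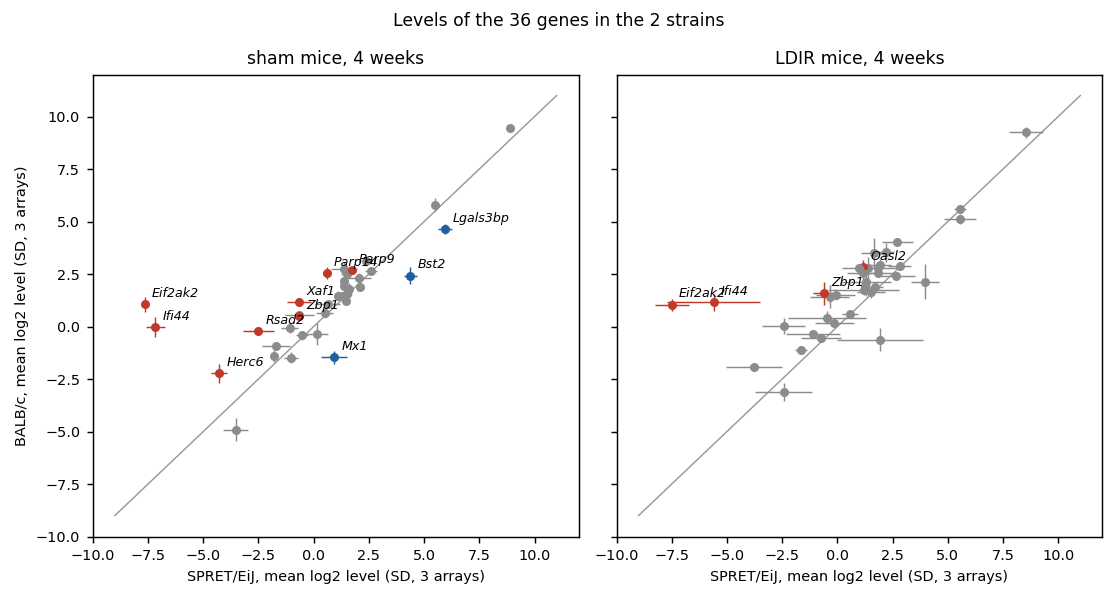
Mean log2 level of each of the 36 genes in SPRET/EiJ (x) and BALB/c (y) at 4 weeks, with SD over 3 arrays, in sham (left) and LDIR (right) mice; the line marks equal levels, and red and blue are genes called higher and lower in BALB/c. Eif2ak2 and Ifi44 lie far to the left in both panels, at SPRET/EiJ means of -7.66 and -7.17 in sham.

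Eif2ak2 and Ifi44 were well above background on all 3 BALB/c sham arrays and on no SPRET/EiJ sham array. Eif2ak2 (probe on chromosome 17, 79252168 to 79252227, mm9) was at 0.92, 1.46 and 0.77 in BALB/c and measured at -7.67, -7.59 and -7.72 in SPRET/EiJ. BALB/c levels were at least 90.1-fold higher (limma adjusted p = 2.91e-05). This lower bound divides the BALB/c mean by a floor for SPRET/EiJ, averaged over its arrays, which is the faintest signal of any probe well above background or the signal of the Eif2ak2 probe, whichever is greater. Ifi44 (probe on chromosome 3, 151394035 to 151394094) was at 0.10, 0.35 and -0.57 against -6.66, -7.44 and -7.42, a gap of at least 42.3-fold with BALB/c higher (limma adjusted p = 0.000111). Each has 1 probe on the array.

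The other genes higher in BALB/c sham glands were Rsad2, Herc6, Parp14, Xaf1, Zbp1 and Parp9. Rsad2 was at -0.39, -0.08 and -0.13 in BALB/c and -2.25, -3.27 and -1.96 in SPRET/EiJ, a difference of 2.30 (SE 0.36, limma adjusted p = 0.00736). Herc6 was at -2.18, -1.81 and -2.69 against -3.87, -4.43 and -4.52, a difference of 2.05 (SE 0.30). Parp14 was at 2.47, 2.86 and 2.29 against 0.71, 0.37 and 0.70, a difference of 1.95 (SE 0.21, limma adjusted p = 0.00208). For these genes every BALB/c array lay above every SPRET/EiJ array. Zbp1 was at 0.65, 0.37 and 0.41 against -0.58, -0.83 and -0.56, a difference of 1.13. Parp9 was at 2.73, 2.72 and 2.61 against 1.75, 1.76 and 1.68, a difference of 0.96. Xaf1 was at 1.35, 1.09 and 1.00 against -0.10, -1.16 and -0.75, a difference of 1.82 (SE 0.30, limma adjusted p = 0.00868), but its second probe gave -6.02 in the opposite direction, so the 2 probes disagree and no direction is given for the gene. The second, dimmer Ddx58 probe passed with BALB/c higher by 3.03 (SE 0.23, limma adjusted p = 0.000571). The first did not pass, with means of 1.89 in BALB/c and 2.11 in SPRET/EiJ. The second Zbp1 probe passed in the direction of the first (2.11), and those of Herc6 (0.81) and Parp9 (0.81) did not pass.

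Mx1, Bst2 and Lgals3bp were lower in BALB/c than in SPRET/EiJ sham glands. Mx1 was at -1.84, -1.30 and -1.27 in BALB/c and 1.52, 0.32 and 0.95 in SPRET/EiJ, a difference of -2.40 (SE 0.34, limma adjusted p = 0.00547), and the part of the defective BALB/c allele in this value was not tested. Bst2 was at 2.46, 2.82 and 1.99 against 4.13, 4.72 and 4.30, a difference of -1.96 (SE 0.28, limma adjusted p = 0.00519). Lgals3bp, a secreted glycoprotein that binds galectins, was at 4.87, 4.61 and 4.40 against 5.74, 6.29 and 5.82, a difference of -1.32 (SE 0.23). Its second probe differed by -1.21 and did not pass. In all 3 the groups did not overlap. Of the pathway genes, Ifnar1 (-0.97), Tlr7 (-1.24) and Aim2 (-1.91) were lower and Nlrc5 (1.53) higher in BALB/c. Cell type markers also differed between the sham groups. Acta2 (3.68), Plin1 (3.84) and Ly6d (8.62) were among those higher in BALB/c, and Mpo (-6.82) and Cr2 (-5.63) among those lower. Their lists were often mixed. Positive differences numbered 4 of 4 for basal epithelium (Acta2) and 4 of 6 for white adipocytes (Plin1). They numbered 2 of 6 for plasmacytoid dendritic cells (Ly6d), where Pacsin1 (-1.47) was lower, 0 of 6 for neutrophils (Mpo) and 1 of 3 for lymph node stroma (Cr2). Of the macrophage markers 0 of 7 passed, of luminal epithelium 0 of 6 (median 1.70) and of endothelium 0 of 5. The part of cell composition in the strain values was not tested. The same 11 genes passed with slide as a random block. The sham arrays of the strains shared no slide, so that fit cannot part slide from strain. With all 24 arrays and slide as a block only Eif2ak2 and Ifi44 passed. There the step between slides 2 and 3 rests on the BALB/c 8-week LDIR arrays alone, among them LDIR B. No such fit without LDIR B was run. Eif2ak2, Ifi44 and Parp14 each passed in all 6 fits without 1 array.

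In LDIR glands, 4 of the 36 genes passed between strains, all higher in BALB/c (3.77% of all probes higher, 1.89% lower), and 9 had an adjusted p under 0.05 (11.1% of all probes). For Eif2ak2 the BALB/c level was at least 75.2-fold higher (limma adjusted p = 0.000238), with LDIR levels of 1.35, 0.78 and 0.98 in BALB/c and measured values of -8.05, -7.80 and -6.63 in SPRET/EiJ. Ifi44 was at 1.46, 0.68 and 1.31 in BALB/c and above background on 1 of 3 SPRET/EiJ arrays, at -3.19, with the others measured at -7.13 and -6.47. Zbp1 was at 1.80, 0.97 and 1.98 against 0.00, -0.91 and -0.86, a difference of 2.17 (SE 0.39, limma adjusted p = 0.0167). Oasl2 was at 3.22, 2.59 and 2.71 against 1.16, 1.22 and 1.17, a difference of 1.66 (SE 0.25, limma adjusted p = 0.0092). Eif2ak2, Ifi44 and Zbp1 also passed in sham glands, and Oasl2 did not. The second probes of Ddx58 (2.98) and Oas1a (2.11) passed with BALB/c higher in LDIR glands, where the first probes of these genes did not. The second Zbp1 probe (1.32) did not pass there. BALB/c arrays were all above SPRET/EiJ arrays for 17 genes (18.6% of all probes) and all below for 2 (14.8%). Without SPRET/EiJ LDIR A, 14 genes passed, all higher in BALB/c (the 4 above with Mx2, Rsad2, Usp18, Stat2, Xaf1, Parp14, Rtp4, Cmpk2, Herc6 and Uba7), 25 had an adjusted p under 0.05 and the median difference of the 36 was 1.42, against 0.78 with it. Over all probes that fit gave 4.21% higher and 3.68% lower in BALB/c, and 19.8% with an adjusted p under 0.05. The LDIR arrays of the 2 strains lay on different slides, so slide and strain cannot be told apart here either.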

How the data were processed

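RNA of 24 female mice was measured, each on 1 single-colour Agilent array of 59305 spots that are not controls. Groups, strains, times and replicate letters came from the labels. The authors deposited scanner files with intensity values, from which the scanner software had removed background and spatial trends per the file headers, and log2 values that the authors had normalized to the 75th percentile and centred per probe. Centred likewise, the values used here differed from the deposited log2 values by under 0.01 for 99.813%. Here 3777 outlier spots were left out (0 spots were saturated), spots of a probe were averaged, log2 was taken and the array's 75th percentile was subtracted. The number of arrays, 3 a group, limits the precision. Columns of per-sample values that could not be mapped numbered 0.

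Each comparison was fitted on its own arrays (limma 3.58.1, R 4.3.3), with Benjamini-Hochberg adjustment over all 55681 probes; the procedure was tested on simulated data. Each gene was given by its brightest probe over the 24 arrays. All 36 genes were named, those past the thresholds or with the largest moderated t with the value of each array, and of the pathway and marker lists those past the thresholds. The genes and lists were chosen with earlier results of these data known. Probe coordinates are those of the files (mm9), promoters those of RefSeq (GRCm38.p6). Settings varied one at a time were the background correction (normexp, offset 50), the normalization (quantile, or the deposited log2 values), outlier spots and undetected probes, the test (the methods' t-test), a block for slide or for replicate letter, a joint fit of the 24 arrays, a gene's probes averaged, and each array left out. Fits without the arrays with high lymphoid markers or low detection were added after seeing the data. The study's lists, networks and correlations with lncRNAs were not used here, and 1 pathway list is not reported here.

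Replicate letters are shared between groups. Deviations of same-lettered LDIR and sham arrays correlated at 0.141, 0.443 and 0.102 for A, B and C in BALB/c at 2 weeks. At the other times and in SPRET/EiJ at least 1 pair lay at or below 0.00353. The labels state no pairing, and the main comparisons, also at 2 weeks, were fitted without one. Figures were drawn with matplotlib 3.10.9.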

Additional observations from a re-analysis of the deposited data

Results flagged for a closer look

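The LDIR change at 4 weeks differed between BALB/c and SPRET/EiJ in the interaction term for 3 of the 36 genes at the unadjusted threshold: Oasl2 by 1.61, Oas1a by 1.04 and Zbp1 by 1.04 on the log2 scale, with adjusted p = 0.955 for each in limma. Oasl2 lay lower in LDIR than in sham on every SPRET/EiJ array and higher on every BALB/c array, and the second Oas1a probe differed by 1.27. The second Zbp1 probe differed by -0.79, in the opposite direction to the first.

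The LDIR change differed over 2, 4 and 8 weeks in BALB/c for 2 genes at the unadjusted threshold, Ifit3 with a moderated F of 4.64 and Oas1a with 4.59, each with adjusted p = 1 in limma. Each passed under 8 of the 11 other settings and in 14 of the 18 fits that left out 1 array. Neither passed when the fit of the BALB/c arrays or of all 24 arrays took slide as a block, nor without 8-week sham A and LDIR B together (F of 3.74 for Ifit3 and 3.33 for Oas1a), nor without 4-week sham B, 4-week sham C or 4-week LDIR C.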

How the results depend on the processing

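Among values of the named genes under the alternatives and with single arrays left out, 479 kept their direction and stayed past the thresholds, 170 kept the direction and no longer passed, and 1 reversed: Xaf1 between strains in sham glands, -2.10 as the mean over both its probes, which disagree. The count at 4 weeks in BALB/c, 16, was 9 with all 24 arrays in one fit. No count is given with slide as a block there, where LDIR stands against sham C alone. With single arrays left out it was 12 to 18. At 2 weeks such fits gave 0 to 1, at 8 weeks 0, also in the fit without sham A and LDIR B, and in SPRET/EiJ 0 to 1 (Ifi44 or Oas3), where all 24 arrays gave 1 with and without slide as a block (Ifi44). Between strains in sham glands, 11 became 5 in the methods' t-test, 2 with all 24 arrays and slide as a block, and 3 to 8 without single arrays, the lowest without BALB/c sham A. Between strains in LDIR glands, 4 became 9 with normexp, 1 in the methods' t-test, 11 with all 24 arrays, 2 with slide as a block there, and 1 to 14 without single arrays, the highest without SPRET/EiJ LDIR A. For the difference of the LDIR change between strains, 3 became 7 with normexp, 1 with all 24 arrays, 7 without SPRET/EiJ LDIR A and C together (chosen after seeing the data), and 1 to 12 without single arrays, the highest without SPRET/EiJ LDIR A. For the change over time, 2 became 4 with all 24 arrays, 1 with slide as a block there, 0 when its own fit took slide as a block, 4 without 8-week sham A and LDIR B (chosen after seeing the data, and neither of the 2 among them), and 0 to 5 without single arrays. With replicate letter as a block, the counts were 0 at 2 weeks, 14 at 4 weeks, 0 at 8 weeks, 0 in SPRET/EiJ, 5 and 2 between strains in sham and LDIR glands, and 3 for each of the 2 differences of change. The cause of these moves was not tested. With all 24 arrays, the steps between slides rest on the BALB/c 4-week sham and 8-week LDIR groups alone, the groups that lay on more than 1 slide. No share of all probes is set beside the count without 8-week sham A and LDIR B. Over all probes, 2686 passed at 4 weeks in BALB/c, but 601 with normexp and 1383 in the methods' t-test. Of those that passed at 8 weeks 8.79% were higher, and 49.2% after quantile normalization, and in SPRET/EiJ 70.4% and 40.7%. Signal over background limits Oas3, Herc6, Eif2ak2 and Ifi44, and the 3 arrays a group limit every comparison.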

Other observations

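The second probe of Xaf1, which encodes a pro-apoptotic partner of XIAP (probe on chromosome 11, 72127175 to 72127234, mm9), was either high or low on an array, unlike the first. It was at 1.89 on BALB/c 2-week LDIR A, 2.08 on 4-week LDIR A and 2.20 on 4-week LDIR C, between -4.62 and -2.85 on the other 15 BALB/c arrays, and between 1.95 and 3.27 on all 6 SPRET/EiJ arrays. The first Xaf1 probe was at 1.48, 1.48 and 1.27 on the same 3 BALB/c arrays, within its range of 0.78 to 1.79 over the 18. The 3 BALB/c arrays are all of LDIR mice, chosen here after their values were seen, and no test was run.

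Ifi27l2a was lower on all 6 BALB/c arrays at 8 weeks (7.76 to 8.76) than on the 12 at 2 and 4 weeks (8.95 to 9.65), in sham and LDIR mice alike, and lower on SPRET/EiJ LDIR A (7.68) than on the other 5 arrays of that strain (8.86 to 9.05). Several marker lists were also lower there. White adipocyte markers had overlapping summed levels of 706 to 1660 at 8 weeks against 1460 to 2600 at 2 and 4 weeks, and 677 on SPRET/EiJ LDIR A against 1760 to 2150 on the other 5. For endothelium these were 22.1 to 27.5 against 30.7 to 51.2, and 23.2 against 30 to 39.9. For plasmacytoid dendritic cells they were 252 to 346 against 412 to 510, and 426 against 457 to 528. Macrophage markers were not lower at 8 weeks, at 60.4 to 95.5 against 33.7 to 92.1. The part of these cell types in the values was not tested. Mice at 8 weeks were also older at collection, and within slide 2 alone the 4 arrays at 8 weeks (7.84 to 8.47) were likewise below the 4 at 4 weeks (8.95 to 9.44).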
